A study of Homo sapiens with 5 samples.

Results

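Replication-dependent histone genes were taken as the protein-coding genes of the hg19 GENCODE annotation named H1-1 to H1-6 and those named H2AC, H2BC, H3C or H4C followed by a number, which were formerly called HIST1 to HIST4. This gave 66 genes of 20098 protein-coding genes. They comprised 6 linker histone H1 genes, 17 H2A genes, 16 H2B genes, 13 H3 genes and 14 H4 genes. H4C2 and H2AC18 carry their older symbols, HIST1H4B and HIST2H2AA3, in the annotation, and H2BC7, H2BC8 and H4C6 were not analysed here. The genes were compared with ChIP-Seq peak lists for the transcription factors E2F1, MYC and Fra-1 (FOSL1), counting peaks that came within 1 kb of the annotated transcription start site (TSS). All libraries came from untreated MDA-MB-231 LM2 cells, an established line derived from the triple-negative breast cancer line MDA-MB-231 for its spread to the lung. Each factor had 1 library, so no difference below has a replicate check, and counts are given beside those over all protein-coding genes without a test.

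Replication-dependent histone genes supply the histones that package newly copied DNA, and their transcription rises as cells enter S phase. They lie in clusters, lack introns in nearly every case and give mRNAs that end in a stem-loop in place of a poly(A) tail. E2F1 is a transcription factor of the E2F family, which drives many genes needed for S phase, and MYC and Fra-1 act mainly through the E-box and the AP-1 site. H2A, H2B, H3 and H4 form the nucleosome core, and H1 binds the linker DNA between nucleosomes.

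Many of the H2A and H2B genes stand head to head and share the DNA between their start sites. The intervals of 4 such pairs are shown on the plus strand of hg19, 3 with an E2F1 peak and, as a contrast, the H2AC1 and H2BC1 interval without one. Capitals mark the letters of the motifs searched, on either strand. The E2F site was searched as TTTCCCGC, TTTCGCGC, TTTGCCGC or TTTGGCGC. The NF-Y box was searched as CCAAT and the TATA box, to which the general transcription machinery binds, as TATAAA. The octamer of the POU factors was searched as ATTTGCAT, the E-box as CACGTG and the AP-1 site as TGACTCA. A core of the H4 promoter element was searched as GGTCCG and the H1 box of linker histone promoters as AAACACA. The H4 core and the H1 box were added after the sequences had been seen.
H2AC14 to H2BC14 (chr6:27782556-27782799): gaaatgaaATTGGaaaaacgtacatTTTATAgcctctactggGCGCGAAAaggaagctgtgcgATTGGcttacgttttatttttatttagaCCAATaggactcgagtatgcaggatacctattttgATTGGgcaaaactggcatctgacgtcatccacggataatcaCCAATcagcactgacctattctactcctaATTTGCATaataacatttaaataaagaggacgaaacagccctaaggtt
H2BC21 to H2AC20 (chr1:149858233-149858467): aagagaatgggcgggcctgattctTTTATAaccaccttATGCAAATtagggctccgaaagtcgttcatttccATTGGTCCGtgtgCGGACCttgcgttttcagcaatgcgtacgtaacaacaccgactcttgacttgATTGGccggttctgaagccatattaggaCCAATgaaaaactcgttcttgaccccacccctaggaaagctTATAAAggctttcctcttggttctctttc
H2BC12 to H2AC12 (chr6:27114635-27114884): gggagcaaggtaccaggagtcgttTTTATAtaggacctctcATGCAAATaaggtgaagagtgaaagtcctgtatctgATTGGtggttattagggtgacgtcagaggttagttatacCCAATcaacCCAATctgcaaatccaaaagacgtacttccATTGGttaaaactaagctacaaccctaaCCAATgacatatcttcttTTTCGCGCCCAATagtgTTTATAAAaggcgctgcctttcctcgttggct
H2AC1 to H2BC1 (chr6:25726791-25727004): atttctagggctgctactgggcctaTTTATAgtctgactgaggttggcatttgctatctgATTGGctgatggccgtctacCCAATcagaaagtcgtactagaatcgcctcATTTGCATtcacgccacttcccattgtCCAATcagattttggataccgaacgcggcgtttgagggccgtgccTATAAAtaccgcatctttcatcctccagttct

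The 150 bases upstream of the TSS are shown for an H1 and an H3 gene with a strong E2F1 peak, H1-4 and H3C12, and for a gene of the same class without one, H1-3 and H3C8. H4C4, also without a peak, is shown for the H4 core. All are on the strand of the gene and marked in the same way.
H4C4 (chr6:26189341-26189490, minus strand): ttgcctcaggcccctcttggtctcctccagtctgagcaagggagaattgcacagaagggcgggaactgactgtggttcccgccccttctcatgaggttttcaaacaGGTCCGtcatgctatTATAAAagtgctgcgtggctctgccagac
H1-4 (chr6:26156407-26156556, plus strand): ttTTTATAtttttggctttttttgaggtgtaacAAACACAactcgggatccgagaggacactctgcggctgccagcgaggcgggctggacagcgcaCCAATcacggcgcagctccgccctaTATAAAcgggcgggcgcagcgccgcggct
H1-3 (chr6:26235216-26235365, minus strand): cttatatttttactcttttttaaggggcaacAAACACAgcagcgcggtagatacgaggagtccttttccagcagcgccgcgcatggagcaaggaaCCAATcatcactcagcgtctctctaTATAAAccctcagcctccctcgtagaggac
H3C12 (chr6:27858605-27858754, minus strand): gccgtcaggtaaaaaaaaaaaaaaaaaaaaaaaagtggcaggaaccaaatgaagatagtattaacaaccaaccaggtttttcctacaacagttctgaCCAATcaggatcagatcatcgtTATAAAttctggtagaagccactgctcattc
H3C8 (chr6:26271642-26271791, minus strand): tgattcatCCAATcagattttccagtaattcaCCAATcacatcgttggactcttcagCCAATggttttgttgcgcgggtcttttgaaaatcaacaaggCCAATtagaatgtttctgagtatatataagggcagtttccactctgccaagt

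The E2F1 list held 36933 peaks, the Fra-1 list 17320 and the MYC list 4867. After removal of repeated tags, 18056168 tags remained for E2F1, 12931227 for Fra-1, 23853621 for MYC and 10758036 for the input DNA used as the background of all 3. The strength of a peak is given here as its pileup, the number of scaled fragments that cover the summit, and as its fold enrichment, the ratio of that pileup to the local background. Where a gene had several peaks, the one with the largest fold enrichment was used. No interval can be set on these values from the lists, since they hold 1 library per factor.

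E2F1 had a peak within 1 kb of the TSS of 40 of the 66 histone genes (60.6%), and 55.9% of all protein-coding genes had one. The share of histone genes was therefore near that of genes at large. MYC had a peak at 1 histone gene, against 15.1% of all protein-coding genes, and Fra-1 had a peak at 2, against 5.05%. None of the 26 histone genes without an E2F1 peak had a peak of MYC or Fra-1. Such peaks were also rare at the 8860 protein-coding genes without an E2F1 peak, where MYC had 4 and Fra-1 had 47 genes. When each list was reduced to the 4867 peaks with the largest −log10 q, the number in the MYC list, E2F1 peaks remained at 37 histone genes and at 23.5% of protein-coding genes. Fra-1 peaks then remained at 0 histone genes and at 0.746% of protein-coding genes.

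**Figure D1:**
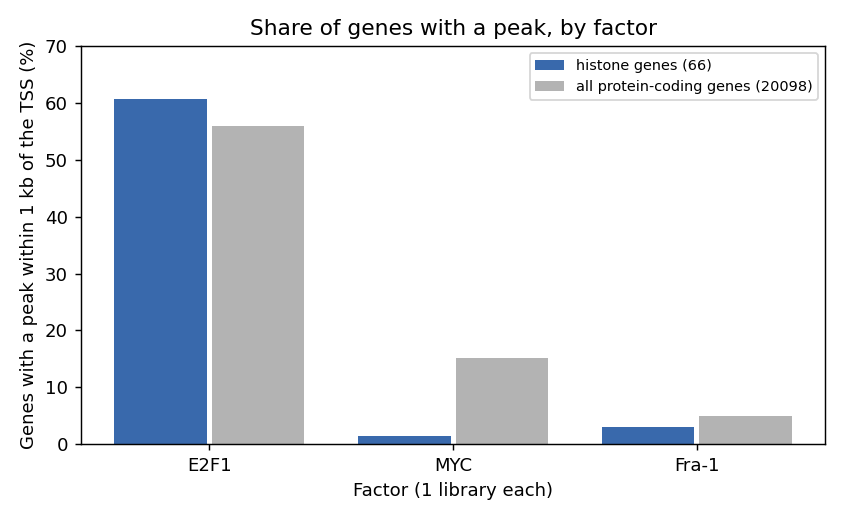
Share of genes with a peak within 1 kb of the TSS (vertical axis, percent) for E2F1, MYC and Fra-1, with 1 library each. Blue bars are the 66 histone genes and grey bars the 20098 protein-coding genes, and the histone share is 60.6% against 55.9% for E2F1 but below the grey bar for MYC and Fra-1.

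The counts by class and by cluster that follow stand beside a share of 55.9% over all protein-coding genes. E2F1 had a peak at 12 of 16 H2B genes (75%) and at 12 of 17 H2A genes (70.6%). It had one at 7 of 14 H4 genes (50%), at 3 of 6 H1 genes (50%) and at 6 of 13 H3 genes (46.2%). The classes are small, and head-to-head H2A and H2B genes share peaks, so these shares are not read as a difference between classes. By position, a peak was present at 7 of the 11 genes of the HIST2 cluster on chromosome 1 and at neither of the 2 HIST3 genes. In the HIST1 cluster on chromosome 6, which was divided wherever neighbouring histone genes lay more than 300 kb apart, a peak was present at 16 of 31 genes of the first block, 4 of 5 of the second and 12 of 16 of the third. The single HIST4 gene, H4C16 on chromosome 12, had a peak.

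**Figure D2:**
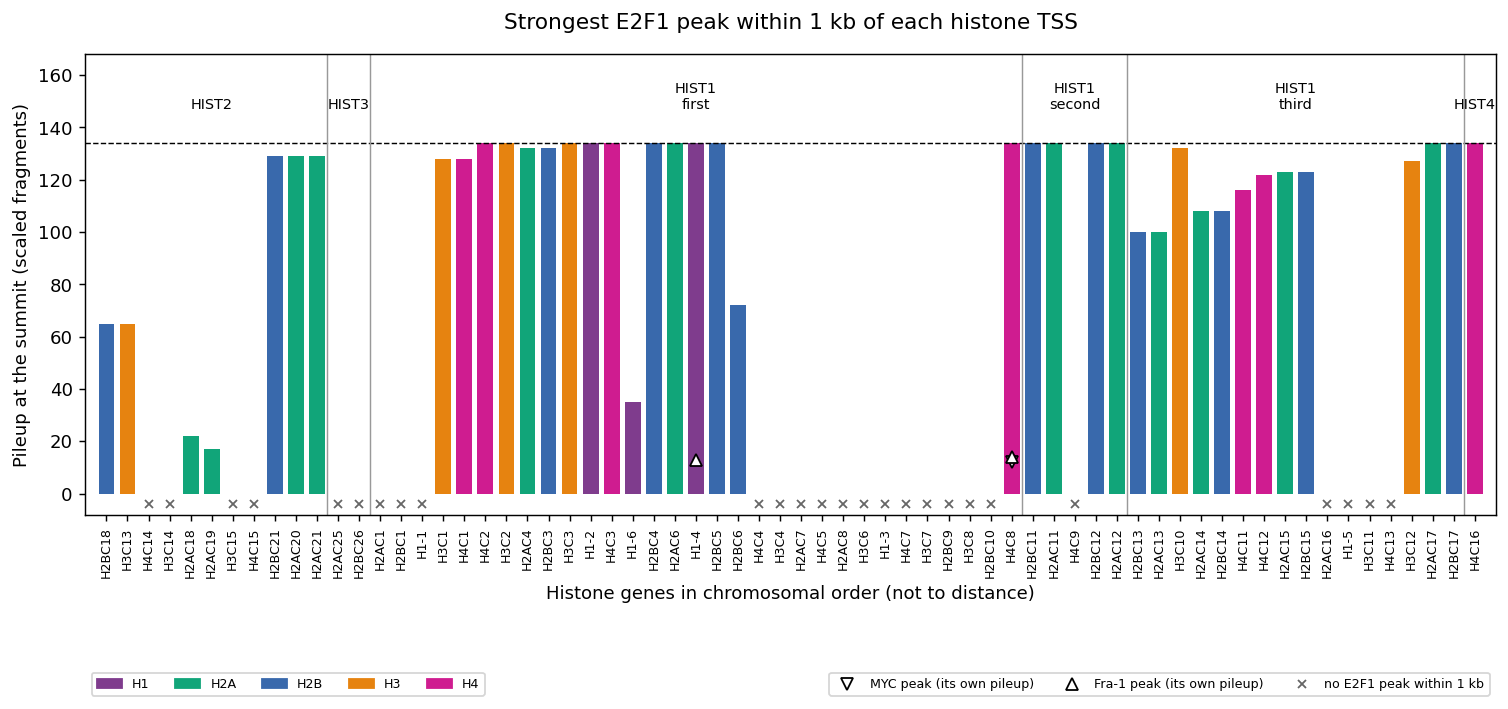
Pileup at the summit of the strongest E2F1 peak (vertical axis, scaled fragments) at each of the 66 histone genes in chromosomal order, coloured by histone class, with crosses for genes without an E2F1 peak and open triangles for the pileup of MYC and Fra-1 peaks. Bars reach the dashed line at 134 at 17 genes, and the crosses run together over 12 neighbouring genes of the first HIST1 block.

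Where an E2F1 peak was present, it was usually strong. The median fold enrichment of the strongest peak was 45.2 at the 40 histone genes (interquartile range 39.3 to 57.4) and 22.0 at the 11238 protein-coding genes with an E2F1 peak (13.6 to 32.3). The median pileup was 130.5 at histone genes against 47, the median −log10 q was 185 against 56.5, and the median peak length was 1520 bp against 627 bp. In fold enrichment, 37 of the 40 histone genes lay above the median of all genes with a peak. These values are not independent of one another, since neighbouring histone genes share peaks. The 40 genes drew on 28 different strongest peaks, whose median fold enrichment was also 45.2. In all, 47 E2F1 peaks lay within 1 kb of a histone TSS, 18 of them near more than 1 histone gene. More than 1 peak was present at 22 of the 40 histone genes and at 5365 of the 11238 protein-coding genes with an E2F1 peak.

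The largest fold enrichment, 69.8, belonged to a peak of 1006 bp at chr6:27782402-27783407 that covered the start sites of H2AC14 and H2BC14, the first pair of sequences shown above. Next came a peak of 3290 bp at chr6:26156127-26159416, with a fold enrichment of 65.3, which covered the TSS of the linker histone gene H1-4 and that of H2BC5. A peak of 4178 bp in the HIST2 cluster, at chr1:149856495-149860672, covered the start sites of H2BC21, H2AC20 and H2AC21 with a fold enrichment of 64.7. These 3 peaks account for 7 of the 8 strongest histone genes, and the eighth was H3C12, an H3 gene whose peak at chr6:27857736-27858716 had a fold enrichment of 64.3. Among H4 genes the largest value was 58.6 at H4C11. H3C1 and H4C1, neighbours on chromosome 6, shared a peak of 57.4.

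The smallest values within each class were far apart. In H2A, H2AC19 had a fold enrichment of 6.09 with a pileup of 17 and H2AC18 of 7.68 with a pileup of 22. The lowest H1 gene was H1-6, which encodes a linker histone of the testis, with a fold enrichment of 17.9, a pileup of 35 and a peak of 404 bp. H4C2 was the lowest H4 gene at 27.1, H2BC15 the lowest H2B gene at 31.1 and H3C3 the lowest H3 gene at 33.9. H4C2 and H3C3 nonetheless had the highest pileup in the list, 134.

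That value was a ceiling of the E2F1 list. With at most 1 tag kept per position and strand, a fragment length of 113 bp and a scale of 0.596, no pileup could pass 134, and 31 of the 36933 E2F1 peaks reached it (0.0839%). Of these 31 peaks, 13 lay within 1 kb of a histone TSS, 5 within 1 kb of another protein-coding TSS only (RCC1, C12orf57, PARP2, ZFP36L1 and POLDIP3) and 13 near no protein-coding TSS. The strongest peak stood at the ceiling at 17 of the 40 histone genes, and 0.187% of the protein-coding genes with an E2F1 peak were in that state. Counted once per peak, 12 of the 28 strongest histone peaks stood at the ceiling (42.9%), against 16 of the 9921 strongest peaks of all protein-coding genes (0.161%). Those 16 include the 12 histone peaks, and of the 11198 other protein-coding genes with an E2F1 peak 4 were at the ceiling.

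The 17 genes at the ceiling were H1-2, H1-4, H2AC6, H2AC11, H2AC12, H2AC17, H2BC4, H2BC5, H2BC11, H2BC12, H2BC17, H3C2, H3C3, H4C2, H4C3, H4C8 and H4C16, and so included every class. At the ceiling the order of fold enrichments follows the background alone, which was 3.98 scaled fragments at H4C2 and 1.07 at H1-4. The differences between 27.1 at H4C2 and 65.3 at H1-4 are therefore not differences in E2F1 pileup, which could not be told apart above 134. The 23 histone genes below the ceiling had a median fold enrichment of 45.8. The highest values of the other lists, 143 for Fra-1 and 59 for MYC, stayed below the limits of those libraries, 184 and 82.

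Summits lay close to the start sites. The distance from the TSS to the nearest E2F1 summit had a median of 116 bp at the 40 histone genes and 95 bp at all genes with an E2F1 peak. It was at most 250 bp at 31 of the 40, and at 8786 of the 11238 protein-coding genes with an E2F1 peak. The summit lay downstream of the TSS at 23 histone genes and upstream at 17, whereas over all genes 5391 were downstream and 5811 upstream. All 3 H1 genes with a peak had the summit downstream, by 127 bp at H1-6, 220 bp at H1-4 and 248 bp at H1-2. The summit was also downstream at 5 of 6 H3 genes and 5 of 7 H4 genes. At H2A and H2B genes it was upstream in 7 of 12 each. A summit on a plateau at the ceiling is not well placed, which applies to 17 of these nearest summits. They are those of the genes named above except H2BC5, whose nearest summit had a pileup of 29, and that of H3C1.

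**Figure D3:**
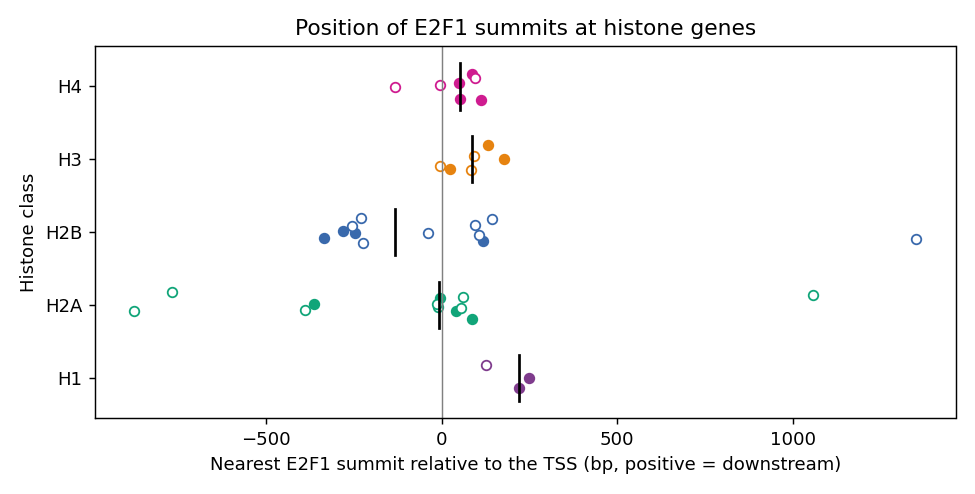
Position of the nearest E2F1 summit relative to the TSS (horizontal axis, bp, positive downstream) for the histone genes with an E2F1 peak, by class (vertical axis). Filled points are summits at the pileup ceiling, black bars are medians (220 bp for H1, 87.5 bp for H3, 52 bp for H4, −8 bp for H2A and −132.5 bp for H2B), and vertical jitter within a class has no meaning.

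The head-to-head arrangement bears on the H2A and H2B values. Among the 66 genes there were 10 pairs of an H2A and an H2B gene on opposite strands, with 194 to 251 bp between the start sites. Of these pairs, 8 shared an E2F1 peak. With start sites this close, the windows of 1 kb nearly coincide, so the sharing follows largely from the rule. Other close pairs of protein-coding genes were not counted. H2BC7 and H2BC8 were not analysed and so could not enter a pair. The strongest shared peak covered both start sites in 7 of the 8. H2BC13 and H2AC13 were the exception, since their strongest peak (fold enrichment 42.8, pileup 100) began beyond the TSS of H2AC13. Their other shared peak did cover both start sites. Its summit lay between the genes, 14 bp upstream of the H2AC13 TSS, with a pileup of 88. The summit of the strongest shared peak was closer to the H2A TSS at H2AC20, H2AC11, H2AC12, H2AC13, H2AC15 and H2AC17, and closer to the H2B TSS at H2BC4 and H2BC14. At H2AC12 the summit was 5 bp upstream of the TSS and thus between the genes, as it was at H2AC20, by 11 bp. The shared peaks of H2AC6, H2AC11, H2AC12 and H2AC17 stood at the ceiling of 134, so the summits at those pairs are not well placed. The remaining pairs, H2AC1 with H2BC1, whose products are known from the testis, and H2AC25 with H2BC26 of the HIST3 cluster, had no E2F1 peak. The nearest E2F1 peak was 65735 bp from H2AC1 and 28464 bp from H2BC26.

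The 26 histone genes without an E2F1 peak fell into 8 stretches between E2F1 peaks. The fullest ran over 99881 bp, at chr6:26184799-26284679, from the peak at H2BC6 to the peak at H4C8. Of the 66 genes it held H4C4, H3C4, H2AC7, H4C5, H2AC8, H3C6, H1-3, H4C7, H3C7, H2BC9, H3C8 and H2BC10. These 12 genes, of all 5 classes, lacked a peak and were consecutive among the 66 analysed. No MYC or Fra-1 peak lay in the stretch either, and such peaks were rare at all genes without an E2F1 peak. On its borders stood H2BC6, with a fold enrichment of 32.8 and a pileup of 72, and H4C8, with 52.2 and 134. Of the 7043 stretches between neighbouring E2F1 peaks that held a protein-coding TSS, 38 held at least the 13 start sites found here, and only this one did so within 99881 bp. Both limits are values of this stretch itself, which was picked as the fullest. The count therefore does not show that the lack of peaks is unusual. Without these 12 genes, 40 of 54 histone genes had an E2F1 peak (74.1%, against 55.9% of all protein-coding genes), a share that could only rise since the genes left out had no peak. Copy number in LM2 cells was not analysed here.

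The second run without a peak was in the third HIST1 block, over 49756 bp at chr6:27807980-27857735, and held H2AC16, H1-5, H3C11 and H4C13. The other 6 stretches held 1 or 2 histone genes each. H1-1 was 2460 bp and H4C9 was 4680 bp from the nearest peak. H4C14 with H3C14, and H3C15 with H4C15, lay in an inverted repeat on chromosome 1 and are described with the uniqueness of the sequence below. The remaining stretches held the H2AC1 and H2BC1 pair and the H2AC25 and H2BC26 pair.

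Histone genes of a class are close copies of each other, and the reads had been kept only where they matched a single place in the genome. The share of 49-mers within 1 kb of the TSS that occur once in hg19 was therefore determined for each gene. The median was 96.9% over the 66 histone genes, 95.6% at those with an E2F1 peak and 98.4% at those without. All 6 H1 genes were at 100%. The 12 genes of the long stretch were between 94.1% (H2BC9) and 100%, with 100% at H3C4, H3C6, H1-3, H3C7 and H3C8, 99.6% at H2AC8, 99.4% at H2AC7, 98.3% at H4C5, 97.4% at H2BC10, 96.3% at H4C7 and 95.9% at H4C4. A read of that length thus has a single place over nearly all of these windows in the unmasked genome. The authors aligned to a masked genome, and what was masked is not given in the sources used here.

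In the second run, H2AC16 had 98.8%, H3C11 98.0% and H1-5 and H4C13 100%. H1-1 had 100% and H4C9 98.5%. The shares were 98.5% at H2AC1, 96.8% at H2BC1, 92.6% at H2AC25 and 89.0% at H2BC26. The other side of the range was the inverted repeat, in which H4C14, H3C14, H3C15 and H4C15 had 0% and no peak. H4C14 and H4C15 have the same 150 bases upstream of the TSS. No 49-base read has a single place in the unmasked genome at these 4 genes, so their state cannot be read from the lists. H2AC18 and H2AC19, in the same repeat, had 20.5% and 12.3% and kept weak peaks whose edges lay 606 bp and 756 bp from the TSS.

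Pileup was lower where little of the window was unique. The 8 histone genes with under 50% unique 49-mers all lay in the HIST2 cluster. Of these 8 genes, 4 had an E2F1 peak, with pileups of 65 at H2BC18 and H3C13, 22 at H2AC18 and 17 at H2AC19. The 65 belongs to a peak that H2BC18 and H3C13 share, and the summit nearest to H2BC18, 40 bp upstream, had a pileup of 87. Of the 11 genes with 50% to 90%, 10 had a peak, and the pileups of their strongest peaks were from 100 to 134. The nearest summits had lower pileups at H4C11 (51), H4C12 (54), and H2BC13 and H2AC13 (88). At H4C11 and H4C12 the strongest peaks had summits 474 bp and 436 bp downstream of the TSS. Of the 47 genes with 90% or more, 26 had a peak, with pileups from 35 to 134 and a median of 134. Reads from positions that are not unique are missing from these pileups. Without the 6 genes of the repeat, 38 of 60 histone genes had an E2F1 peak (63.3%). The repeat holds 4 genes without a peak, so leaving it out raises the share. The counts by unique share stand beside 55.9% of all protein-coding genes with an E2F1 peak.

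**Figure D4:**
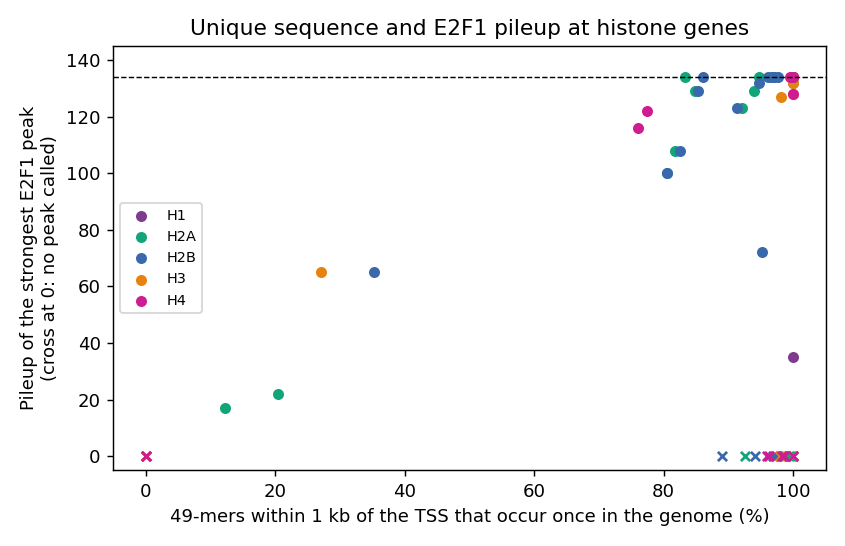
Pileup of the strongest E2F1 peak (vertical axis, scaled fragments, crosses at 0 for genes without a peak) against the share of 49-mers within 1 kb of the TSS that occur once in the genome (horizontal axis, percent) for the 66 histone genes, coloured by class. The dashed line is the ceiling of 134, and most of the crosses stand at shares above 90%, where 21 of the 47 genes had no peak.

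MYC had a peak at H4C8 alone. It lay at chr6:26285688-26285905, with its summit 12 bp upstream of the TSS, a pileup of 12 and a fold enrichment of 6.75. The Fra-1 peak of H4C8 at chr6:26285779-26285956 had its summit 107 bp upstream, a pileup of 14 and a fold enrichment of 6.80. The other Fra-1 peak was at H1-4, at chr6:26156654-26156786, 140 bp downstream of the TSS, with a pileup of 13 and a fold enrichment of 6.95. H4C8 was thus the only histone gene with all 3 factors. All 3 of these peaks overlapped the E2F1 peak, which was at the ceiling at both genes, and no E-box or AP-1 letters lay within 50 bp of a summit. Most genes with these factors also had E2F1, namely 3037 of 3041 protein-coding genes with a MYC peak and 967 of 1014 with a Fra-1 peak. H4C8 is the gene at the end of the long stretch.

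At other genes with strong E2F1 peaks, MYC peaks were frequent. Of the 24 histone genes whose E2F1 fold enrichment was at least 45.2, 1 had a MYC peak and 2 a Fra-1 peak. Of the 874 other protein-coding genes with at least that fold enrichment, 602 had a MYC peak (68.9%) and 134 a Fra-1 peak (15.3%). By pileup, 28 other genes reached 130.5 and 20 of them had a MYC peak (71.4%), against 1 of 20 histone genes. The promoters of the 874 genes had a median G and C content of 64.7%, and those of the 24 histone genes of 43.3%. Whether base composition has a part in the difference was not tested. Over a wider window of 10 kb, MYC was still at 1 histone gene (1.52%) against 19.3% of protein-coding genes, and Fra-1 at 7 (10.6%) against 16.0%.

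The promoters, taken from 250 bp upstream to 50 bp downstream of the TSS, were poor in G and C and often held a TATA box or CCAAT. Their median G and C content was 44.2%, against 63.7% for all protein-coding genes. A TATA box was present in 44 histone promoters (66.7%) against 9.82% of all promoters, and CCAAT in 55 (83.3%) against 35.9%. Of 41 TATA sites on the strand of the gene, 35 began between 35 and 25 bp upstream of the TSS. The E2F letters were present in 19 (28.8%) against 4.34%, but no H1 gene and only 1 H3 gene (H3C7) was among them. A site between head-to-head start sites, of any motif, was counted for both genes where it lay in both promoters. Neither the E-box nor the AP-1 site was present in any histone promoter, while 8.74% of all promoters held the E-box and 3.58% the AP-1 site. A match of letters is a description of the sequence and does not show that a factor binds there. CCAAT can overlap the H4 core by 2 letters on opposite strands, as in the H2BC21 to H2AC20 interval, and the TATA letters of both strands can overlap.

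Some elements were largely those of a class. The octamer was present in 12 of 17 H2A and 12 of 16 H2B promoters, in no H1, H3 or H4 promoter and in 1.58% of all promoters. It lay on the strand of the H2B gene at 11 H2B genes, at a median of 49 bp upstream of the TSS, and on the opposite strand at 11 H2A genes. All 6 E2F matches of H2A genes, at H2AC11, H2AC12, H2AC13, H2AC14, H2AC16 and H2AC17, began 50 or 49 bp upstream of the TSS, as in the capitals of the H2BC12 to H2AC12 interval next to the TATA box. The H4 core was present in 12 of 14 H4 promoters and 14.7% of all promoters, and began within 5 bp of its median position, 46 bp upstream, in 11 of the 12. CCAAT, present in all H1, H2B and H3 promoters and in 16 of 17 of H2A, was found in 4 of 14 H4 promoters. The H1 box was present on either strand in all 6 H1 promoters, against 4.19% of all promoters, and on the strand of the gene in 5 of the 6. Its reversed letters were present in 3 of the 6, against 3.42% of all promoters. All 6 H1 promoters had CCAAT, at a median of 54 bp upstream.

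**Figure D5:**
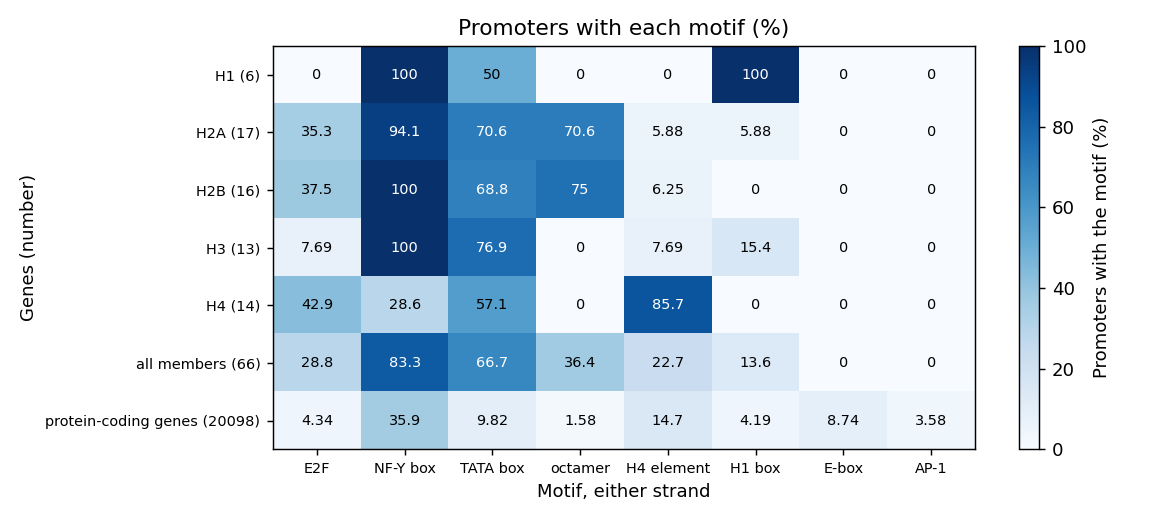
Percent of promoters, from 250 bp upstream to 50 bp downstream of the TSS, that hold each motif on either strand (columns, the NF-Y box being CCAAT), for the 5 histone classes, all 66 histone genes and all 20098 protein-coding genes (rows). Darker blue is a higher percent, and the octamer is seen in H2A and H2B only among the classes, the H1 box in all of H1 and the H4 core in 85.7% of H4.

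Within the histone genes, motifs were present on both sides of the E2F1 call. The E2F letters were present at 14 of 40 histone genes with a peak (35.0%) and at 5 of 26 without (19.2%), namely H4C7, H3C7, H4C9, H2AC16 and H4C13. Among those with a peak, 5 H2B genes held the letters only as the site of their head-to-head H2A partner, so the 14 genes are not separate sites. CCAAT was present at 34 of 40 and 21 of 26, and the TATA box at 31 of 40 and 13 of 26. H1-4 and H3C12, among the strongest, held no E2F letters, and neither did H1-3 and H3C8 without a peak. As printed above, H1-4 and H1-3 both carry the H1 box, CCAAT and the TATA box, and H4C4 carries the H4 core and the TATA box.

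E2F1 peaks were also present at most genes of 4 further lists that bear on histone supply. E2F1 had a peak at all 10 genes of histone transcription, namely NPAT, CASP8AP2, HINFP, POU2F1, NFYA, NFYB, NFYC, CDK2, CCNE1 and CCNE2, beside 55.9% of all protein-coding genes. Their median fold enrichment was 32.5, against 22.0 at all genes with an E2F1 peak. MYC had a peak at 5 of them (NPAT, HINFP, POU2F1, NFYC and CCNE2), beside 15.1% of all genes. CASP8AP2, a component of the histone locus body, had the largest E2F1 value of the list (63.5, pileup 91), and CCNE1, the cyclin E1 gene, the smallest (17.1, pileup 23). NPAT, the cyclin E-CDK2 substrate that activates histone genes, had 32.3 with a pileup of 95.

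E2F1 also had a peak at all 12 genes of histone mRNA processing (SLBP, LSM10, LSM11, ZNF473, CPSF2, CPSF3, CPSF4, SYMPK, CSTF2, FIP1L1, ERI1 and COIL), with a median of 28.6, and MYC at 5 of them (SLBP, ZNF473, CPSF4, SYMPK and COIL), where all protein-coding genes had shares of 55.9% and 15.1% and a median of 22.0. SLBP, which binds the stem-loop, had the largest value (58.5) and LSM11, a subunit of the U7 particle, the smallest (6.61). All 8 histone chaperone genes had an E2F1 peak, beside 55.9% of all genes, with a median of 33.9 against 22.0, the largest at NASP (47.3) and the smallest at CHAF1B (8.89). Those were ASF1A, ASF1B, CHAF1A, CHAF1B, NASP, HAT1, RBBP4 and RBBP7, of which NASP and RBBP4 had a MYC peak. None of the genes of these 3 lists had a Fra-1 peak.

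Histone genes listed as replication-independent had an E2F1 peak at 9 of 11, beside 55.9% of all protein-coding genes, with a median fold enrichment of 36.2 against 22.0. They were H1-10, H2AX, H2AZ1, H2AZ2, H2AJ, MACROH2A1, H3-3A, H3-3B and CENPA, while MACROH2A2 and H3-5 had none. H2AZ1, the gene of an H2A variant, was the strongest (59.7, pileup 129) and the only one with a MYC peak, and MACROH2A1 was the weakest (10.1, pileup 13). H3-3B, an H3.3 gene, was the only one with a Fra-1 peak (fold enrichment 9.48) and had an E2F1 pileup of 131. No gene of the 4 lists stood at the ceiling of 134.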

How the data were processed

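ChIP-Seq of Fra-1, MYC and E2F1 was analysed from the peak lists that the authors deposited, 1 library per factor. EZH2 and input have no list used here, and the fourth factor was not analysed here. According to the study's methods and the submitters' processing notes, the authors trimmed reads (Trimmomatic 0.27), aligned them to a masked hg19 genome with Bowtie 0.12.5, kept uniquely mapped reads, removed duplicates and called peaks per library at q under 0.01 (MACS2 2.0.10.20120913 in the file headers). The deposited signal is the pileup at the summit, the deposited fold enrichment is a ratio to the local input background with 1 added to both, and significance was deposited as the −log10 of the p- and the q-value.

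A gene was called where a peak overlapped, by at least 1 bp, the window of 1 kb either side of its canonical TSS (GENCODE release 44 lifted to GRCh37). Median distances, promoter motifs and unique 49-mers were computed with Python 3.11.15, numpy 2.4.6 and pandas 2.3.3. Assignment was tested on simulated data. No statistical test was run, since each factor had 1 library. Members, lists and the stretches described were chosen with earlier results of these data known. Named with values were the 8 largest E2F1 fold enrichments, members with MYC or Fra-1, members without E2F1, class extremes, head-to-head pairs and the extremes of each pathway list. Other genes, such as those at the ceiling, were named after their values were seen. Tags kept per library, which limit the precision, ranged from 10758036 (input) to 23853621 (MYC). An item of the lists and a promoter sequence are not reported here.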

Additional observations from a re-analysis of the deposited data

How the results depend on the processing

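The E2F1 count of 40 histone genes lay between 33 (each peak assigned to the nearest gene only) and 40 under the alternatives tried on all 66 genes, and 35 genes were called under each of 8 settings of window, TSS and threshold, 26 under none. The calls that changed were those of H2AC18 and H2AC19 (500 bp window or equal peak numbers), H1-6 (equal peak numbers), and H2AC21 and H2BC5 (summit within 1 kb). The median fold enrichment of 45.2 stayed at 45.2 or 45.8. With equal numbers of peaks, 4719 protein-coding genes had an E2F1 peak and 150 a Fra-1 peak, and Fra-1 was at 0 histone genes. The window from 2 kb upstream to 2.5 kb downstream gave Fra-1 at 4 histone genes and at 7.23% of protein-coding genes. With every annotated TSS, Fra-1 was at 1980 protein-coding genes. With the single TSS but all annotated genes as the background, Fra-1 was at 2003 of 63827. Histone genes have a median of 1 annotated start site against 5 for protein-coding genes. Measured to the midpoint of the peak, the median distance from the TSS was 261.5 bp, against 116 bp to the summit. In the promoter from 500 bp upstream to 100 bp downstream, the E2F letters were present in 30 histone genes (6.98% of all promoters), the E-box in 1 (13.5%) and the AP-1 site in 2 (6.83%). Reversed letters were found in 5 for E2F (3.49% of all promoters), 25 for CCAAT (19.8%), 16 for the TATA box (8.45%), 0 for the octamer (0.124%) and 1 for the E-box (4.85%). With 36-mers the median unique share was 93.9%. Omitting the long stretch, the inverted repeat and the genes at the ceiling was chosen after seeing the data. No paired analysis was possible because each factor had 1 library and no test was run. A count of 0 peaks at a gene says that none was called at this depth.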
